A study of Mus musculus with 1279 samples.

Results

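The elastic fibre genes described here are Eln, Fbn1, Mfap5, Mfap4, Fbln1, Fbln2, Fbln5, Efemp1, Efemp2 and Emilin1. They were chosen by name, as the structural protein of elastin together with the proteins of the microfibril and the glycoproteins that join the 2, and they are 10 of the 46517 genes measured by read counts in 1279 single cells, all from mouse hearts. All 10 had counts, and all 10 passed the filter on low counts in each of the 8 comparisons made. Each cell carried the number of the cluster that the authors had assigned to it, 1 to 8, and the strain of the mouse. The study's text places clusters 1 to 5, with 926 cells, among fibroblasts, and holds cluster 1 to be likely valve interstitial cells. Clusters 6 to 8, with 353 cells, were taken here as mural cells, the contractile cells and pericytes that cover blood vessels.

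All mice were males of 10 to 20 weeks on a C57BL6 background. In the C57BL6 strain, which gave 581 of the cells, cells were caught with antibodies against the receptors Pdgfra or Pdgfrb. The other strains carried fluorescent reporters, which were GFP driven by Pdgfrb in PdgfrbGFP (364 cells), dsRED driven by Cspg4 in Cspg4dsRED and GFP driven by Acta2 in Acta2GFP. A reporter restricts the sort to cells in which its promoter is active, and cells with the endothelial surface protein CD31 were kept out of every sort. The heart was taken apart with a muscle dissociation kit and collagenase IV, and elastase, an enzyme that digests elastin, was added to the mixture for Acta2GFP mice. The labels name no animal, and each reporter strain came from a single plate, so that strain, sort, enzyme mixture and plate cannot be told apart. Strains were the replicates, and p-values measure the spread between strains. The clusters had been drawn by the authors from the same counts, so a gene that helped to form a cluster had to differ between clusters. A small adjusted p therefore says that a difference recurred over strains, not that the cluster was found without that gene.

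Elastic fibres give arteries, heart valves and the connective tissue of the heart their recoil. Cells secrete tropoelastin, the product of Eln, which gathers into globules, is laid onto a scaffold of microfibrils built mainly from fibrillin-1 (Fbn1), and is then cross-linked by lysyl oxidases. Mfap5 and Mfap4 are glycoproteins that attach to microfibrils. The fibulins are secreted adaptors. Fibulin-4 (Efemp2) and fibulin-5 (Fbln5) bring tropoelastin and the cross-linking enzymes together, fibulin-1 (Fbln1) lies inside the elastin core, fibulin-2 (Fbln2) lies at the border of core and microfibrils, and fibulin-3 (Efemp1) is a close relative of both short fibulins. Emilin1 sits at the same border and also restrains the maturation of transforming growth factor beta. In the artery wall the main producers of elastin are smooth muscle cells, while adventitial fibroblasts supply microfibril proteins and fibulins.

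Depth ran from 46268 to 1302397 gene counts per cell, with a median of 274504. Marker lists were summed to check the labelled types. Summed over Pdgfra, Col1a1, Col1a2, Lum and Dcn, the fibroblast level lay between 10590 and 14489 CPM (gene counts scaled to a total of 1000000) in every cluster 1 to 5 sum, and between 309 and 777 CPM in cluster 7. The smooth muscle list (Acta2, Myh11, Tagln, Cnn1) stood at 11449 CPM in cluster 6 and 12725 CPM in cluster 7, and the pericyte list (Kcnj8, Abcc9, Rgs5, Vtn) at 17298 CPM in cluster 8. A general mural list (Rgs5, Notch3, Mcam, Des, Cspg4) stood at 7523 CPM in cluster 7 and 9440 CPM in cluster 8 but at 1693 CPM in cluster 6, where it lay below the fibroblast list in each of the 3 strains. Cluster 6 thus carried smooth muscle markers with few general mural ones, and no mural cluster was free of fibroblast markers. Cardiac muscle markers (Myh6, Myh7, Actc1, Tnnt2, Tnni3, Ryr2, Pln, Nppa, Myl2) summed to 1324 to 1904 CPM in cluster 7 and 5.88 to 1524 CPM in cluster 6. They summed to 2.78 to 257.6 CPM in clusters 1 to 5 and 110.6 to 325.9 CPM in cluster 8. The study's text names Actc1 among genes enriched in a small population of heart smooth muscle cells, so the list is not particular to cardiac muscle. Endothelial markers reached 303.8 CPM, immune markers 33.6 CPM and Schwann cell markers 8.83 CPM. Some sums stood apart from their cluster. The 15 Acta2GFP cells of cluster 8 held 4033 CPM of smooth muscle markers and 6942 CPM of pericyte markers, against 201.1 to 1170 CPM and 18865 to 23596 CPM in the other strains, and 3334 CPM of fibroblast markers against 960 to 1370 CPM. The 9 PdgfrbGFP cells of cluster 7 held 8974 CPM of pericyte markers, against 2486 and 2859 CPM in the other strains of that cluster. The 3 C57BL6 cells of cluster 6 held 12491 CPM of fibroblast markers, against 3108 and 3223 CPM in the other strains of that cluster. Sums were made only from 3 cells or more, which left 17 fibroblast and 10 mural sums.

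Added up, the elastic fibre genes made 10136 ± 1307 CPM of the transcriptome in cluster 4 (SD, n = 4 strains), the highest mean of any cluster. The other fibroblast clusters lay between 7106 and 8753 CPM. Cluster 6 reached 5823 ± 1509 CPM (n = 3), while cluster 8 had 1463 ± 992 CPM (n = 4) and cluster 7 575 ± 108.1 CPM (n = 3). The mean of cluster 6 thus lay below that of every fibroblast cluster but nearer to them than to clusters 7 and 8, and its make-up differed. Its sums ran from 4105 to 6937 CPM, and that of C57BL6 came from the 3 cells rich in fibroblast markers. Per kilobase of exon, the only scale on which levels of different genes are compared here, Eln was 12.7 ± 3.39% of the summed level of these genes in cluster 6 and between 0.716% and 2.11% in the fibroblast clusters. Fbln1 took 44.2 ± 7.47% in cluster 3, and Mfap4 34.04 ± 17.4% in cluster 1 and 33.6 ± 5.10% in cluster 4. In cluster 7 Efemp2 made 44.7 ± 17.6%, and in cluster 8 Efemp2 made 26.6 ± 12.9% and Fbn1 19.4 ± 8.70%. These shares describe the mean over strains and carry no test.

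**Figure D1:**
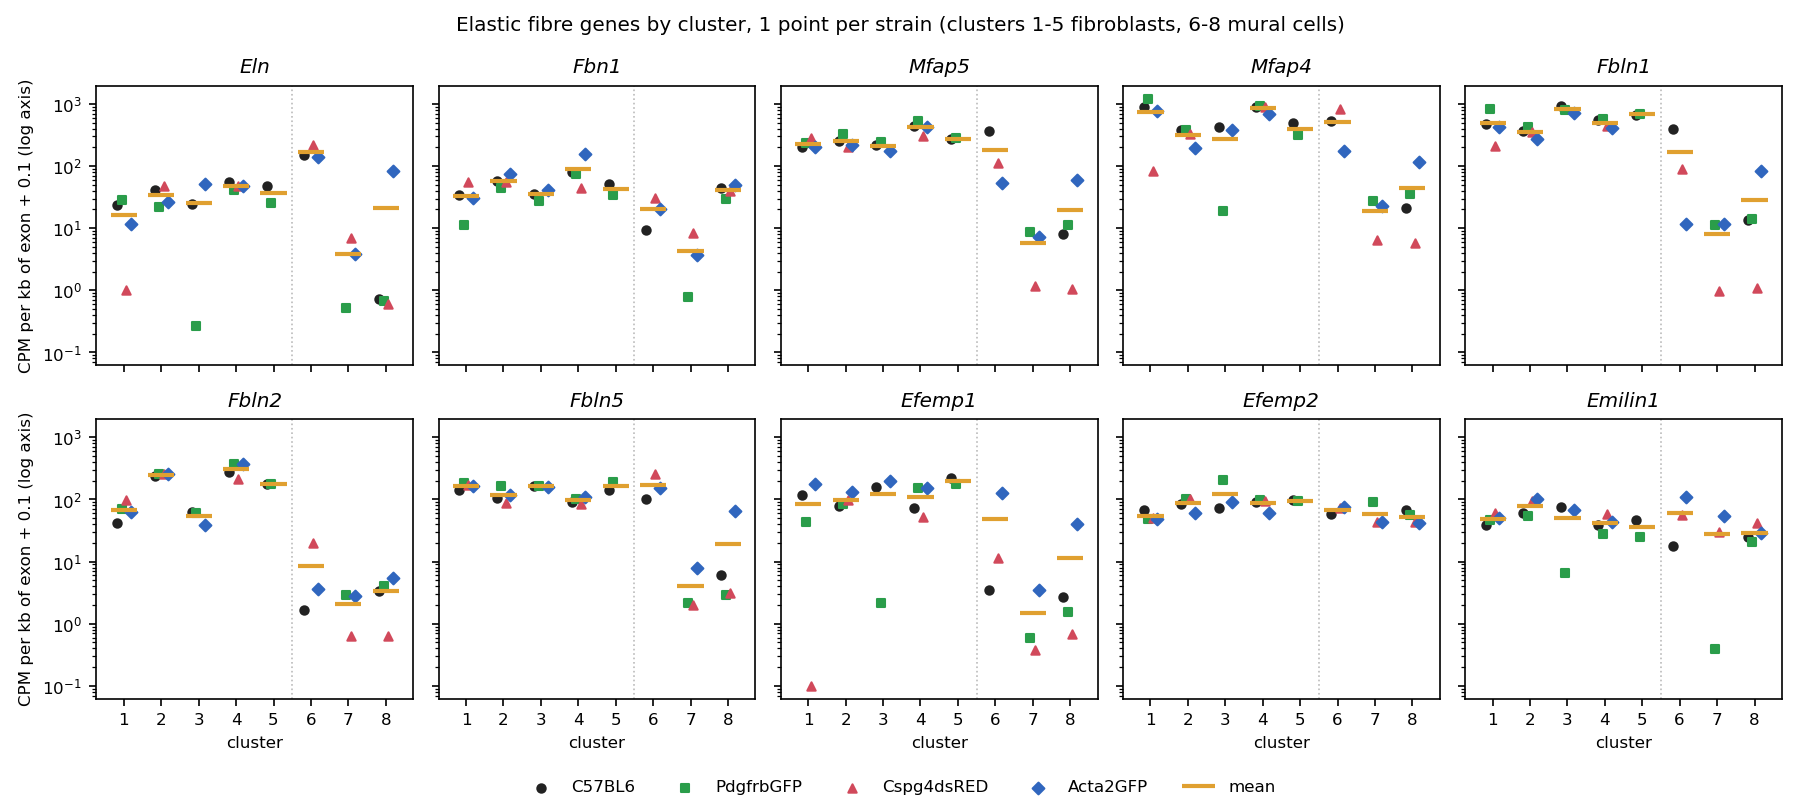
Level of each elastic fibre gene in clusters 1 to 8, as CPM per kilobase of exon plus 0.1 on a log axis. Each point is the sum of 3 or more cells of a strain, horizontal lines are means over strains, and the dotted line separates fibroblasts from mural cells. Eln lies highest in cluster 6, Fbln2 drops in clusters 1 and 3, and Acta2GFP lies above the other strains in cluster 8 for Eln, Fbln1, Fbln5 and Efemp1.

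Eln (chr5:134702593-134747323, minus strand, GRCm38) encodes tropoelastin. It was highest in cluster 6, with 1222, 1746 and 1121 CPM for C57BL6, Cspg4dsRED and Acta2GFP. Every strain of cluster 6 lay above every strain of every other cluster. The next mean was that of cluster 4, with 448, 337, 390 and 388 CPM in C57BL6, PdgfrbGFP, Cspg4dsRED and Acta2GFP. From cluster 4 downward the ranges of neighbouring clusters overlapped, through clusters 5, 2, 3, 8 and 1 to cluster 7 with 3.43, 55.6 and 30.8 CPM in PdgfrbGFP, Cspg4dsRED and Acta2GFP. The small sums were uneven. In cluster 3 the 7 PdgfrbGFP cells had 1.39 CPM while C57BL6 and Acta2GFP had 196.1 and 413.2 CPM. In cluster 1 the 3 Cspg4dsRED cells had 7.40 CPM against 91.96 to 230.2 CPM in the other strains. The study's text already reports Eln as enriched in a small group of heart smooth muscle cells, likely from the pulmonary trunk and aorta. The cluster labels used here do not name that group.

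In cluster 8 Eln split by strain. It stood at 5.15, 4.69 and 4.05 CPM in C57BL6, PdgfrbGFP and Cspg4dsRED and at 673 CPM in Acta2GFP. All 9 cells of cluster 8 with 100 CPM or more of Eln were among the 15 Acta2GFP cells, in which the median was 141.1 CPM and the highest value 3777 CPM. The same cells were those with raised smooth muscle and fibroblast markers and the strain whose hearts met elastase. They also held more, with a median of 6896 genes detected and 350011 counts per cell against 2782 to 3610 genes and 143791 to 215419 counts in the other strains of cluster 8, and Acta2GFP cells as a whole had 6388 genes against 3358 to 4265. The part of any of these in the Eln level was not tested. Within fibroblasts the level of Eln differed widely between cells. A share of 50.2% of cluster 4 cells reached 100 CPM (95% Wilson interval 43.8 to 56.6%), 43.4% of cluster 2, 35.96% of cluster 5, 24.1% of cluster 3 and 20.0% of cluster 1, and the median fibroblast had 12.5 CPM. These shares pool strains that differed. In cluster 4 it was 32.1% of PdgfrbGFP cells against 53.8 to 57.5% in the other strains, and in PdgfrbGFP the share in cluster 5 (22.9%) lay above that in cluster 2 (18.4%). Of the 39 cells of cluster 6, 34 reached 100 CPM, with a median of 1387 CPM, although in Acta2GFP only 1 of 3 cells did. Wilson intervals cover counting of cells only, and without molecular identifiers the reads themselves are not counts of molecules.

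**Figure D2:**
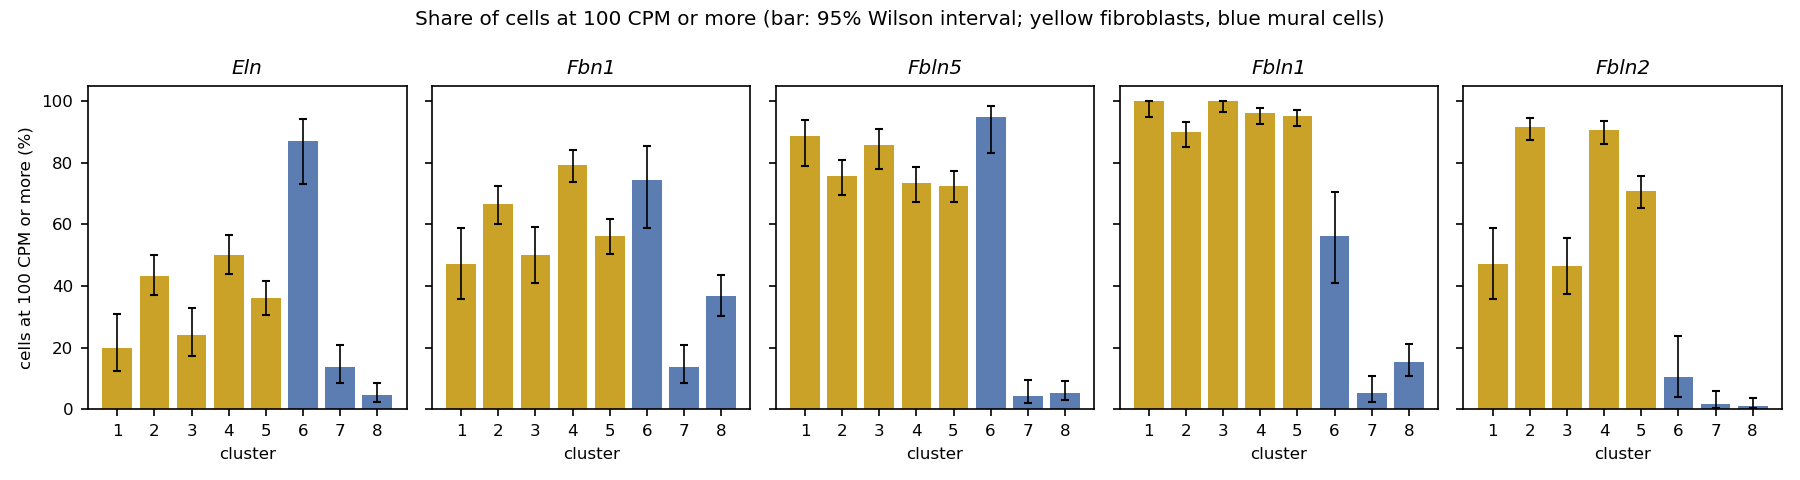
Share of cells with 100 CPM or more of Eln, Fbn1, Fbln5, Fbln1 and Fbln2 in each cluster, over all strains, with 95% Wilson intervals. Eln reaches this level in 87.2% of cluster 6 cells and in 4.59% of cluster 8 cells, whereas Fbln2 reaches it in 10.3% and 1.02%.

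Fbn1 (chr2:125300594-125507993, minus strand) encodes fibrillin-1, the main microfibril protein, whose loss of function causes Marfan syndrome. It was spread more widely than Eln. Cluster 4 had the highest mean, with 960, 915, 544 and 1861 CPM in C57BL6, PdgfrbGFP, Cspg4dsRED and Acta2GFP, and its range overlapped that of cluster 2. Among mural cells cluster 8 had the highest mean. It held 539, 353, 482 and 606 CPM in the same 4 strains. Cluster 6 held 112.7, 369.5 and 247.8 CPM in C57BL6, Cspg4dsRED and Acta2GFP, and cluster 7 held 8.34, 101.9 and 43.4 CPM in PdgfrbGFP, Cspg4dsRED and Acta2GFP. All sums of clusters 8 and 6 lay above those of cluster 7. Of the Fbn1 exons 20.1% lie over Gm9913 on the opposite strand, and since the strand setting of the counting was not stated, reads of that stretch cannot be assigned to either gene. The same holds for 3.30% of the exon bases of Eln, 4.63% of those of Mfap4 and 4.57% of those of Efemp2, which lie over Gm30003, Mapk7 and Mus81.

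Mfap5 (chr6:122505845-122529290, plus strand) binds fibrillins and Mfap4 (chr11:61485431-61488900, plus strand) binds both elastin and fibrillin. Mfap5 was highest in cluster 4, where it stood at 1586, 1922, 1078 and 1497 CPM in C57BL6, PdgfrbGFP, Cspg4dsRED and Acta2GFP, all above the 2 sums of cluster 5, the next in order. The remaining fibroblast clusters lay within 617 to 1187 CPM and overlapped. In cluster 7 Mfap5 was at 3.91 to 30.4 CPM and only 0.847% of cells reached 100 CPM, against 97.4% in cluster 4. Cluster 6 was uneven for Mfap5, with 1316 CPM for the C57BL6 cells, 406.6 CPM for Cspg4dsRED and 191.1 CPM in Acta2GFP, the highest value being that of the 3 cells rich in fibroblast markers. Mfap4 was high in both cluster 4, at 1728, 1769, 1704 and 1314 CPM, and cluster 1, at 1695 CPM in C57BL6, 2329 CPM in PdgfrbGFP and 1503 CPM in Acta2GFP, and the ranges overlapped. The 3 Cspg4dsRED cells of cluster 1, at 157.95 CPM, put its mean below that of cluster 4. It was also high in cluster 6, at 1012, 1571 and 331 CPM in C57BL6, Cspg4dsRED and Acta2GFP. Of single cells, 74.2% of cluster 4, 84.3% of cluster 1 and 44.9% of cluster 5 reached 100 CPM of Mfap4.

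The fibulins fell into different patterns. Fbln1 (chr15:85205949-85286535, plus strand) had its highest means in clusters 3 and 5. Cluster 3 stood at 4085 CPM (C57BL6), 3462 CPM (PdgfrbGFP) and 3136 CPM (Acta2GFP), apart from cluster 5 at 2943 and 2967 CPM, which was apart from cluster 4 at 1790 to 2467 CPM. Cluster 1 was wide, from 928 CPM in the 3 Cspg4dsRED cells to 3639 CPM in PdgfrbGFP, and cluster 2, at 1179 to 1821 CPM, overlapped it. All 926 fibroblasts had a count of Fbln1. So did 92.9% of cluster 8 cells, at a median of 51.1 CPM, and 15.3% of these reached 100 CPM.

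Fbln2 (chr6:91212455-91272540, plus strand) set the fibroblast clusters apart in another way. It stood at 1502, 1612, 1622 and 1632 CPM in cluster 2 and at 1794, 2355, 1348 and 2359 CPM in cluster 4, in C57BL6, PdgfrbGFP, Cspg4dsRED and Acta2GFP. It was low in cluster 1, at 263.8, 446.2, 625.6 and 397.7 CPM in the same strains, and in cluster 3, at 401.2 CPM (C57BL6), 390.4 CPM (PdgfrbGFP) and 247.9 CPM (Acta2GFP). The ranges of clusters 1 and 3 overlapped each other and lay below all other fibroblast sums. Cluster 3 thus had the highest mean of Fbln1 and the lowest of Fbln2 among fibroblasts. In mural clusters Fbln2 lay between 3.41 and 126.1 CPM.

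Fbln5 (chr12:101746565-101819055, minus strand) joined fibroblasts and cluster 6. It stood at 702, 1750 and 1063 CPM in cluster 6 (C57BL6, Cspg4dsRED, Acta2GFP), overlapping clusters 5, 1 and 3, in which every sum lay between 971 and 1320 CPM. Clusters 7 and 8 were at 13.4 to 53.9 CPM, except for Acta2GFP in cluster 8 with 452 CPM. Efemp1 (chr11:28853204-28926743, plus strand) reached 100 CPM in 43.8% of cluster 3 cells and 21.9% of cluster 2 cells. By strain these shares were 47.8% and 20.2% in C57BL6 but 35.7% and 34.2% in Acta2GFP, and in PdgfrbGFP 0 of the 7 cells of cluster 3 and 16.3% of cluster 2. Its mean was highest in cluster 5, at 445 CPM in C57BL6 and 362 CPM in PdgfrbGFP, and the order of all neighbouring clusters was within their spread. The small sums were low for this gene too, with 4.16 CPM in the 7 PdgfrbGFP cells of cluster 3 and no count in the 3 Cspg4dsRED cells of cluster 1, where the total of 810367 counts allows up to 3.70 CPM.

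Efemp2 (chr19:5473954-5482517, plus strand) and Emilin1 (chr5:30913402-30921277, plus strand) had the most even means. Their shares of cells at 100 CPM or more were less even. They ran from 16.8% in cluster 8 to 64.1% in cluster 6 for Efemp2, and from 13.8% to 66.7% in the same clusters for Emilin1. The mean of Efemp2 ran from 198.8 CPM in cluster 8 to 461.8 CPM in cluster 3, and no neighbours in the order of clusters were apart. Emilin1 ran from 137.4 CPM in cluster 7 to 382.2 CPM in cluster 2, again without a gap, but its strains differed widely in small sums, from 1.47 CPM in the 9 PdgfrbGFP cells of cluster 7 to 532 CPM in the 3 Acta2GFP cells of cluster 6.

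RefSeq start sites of GRCm38.p6 were matched by symbol for 7 of the 10 genes. The 250 bases before a start are given for 3 fibulins with different patterns. Fbln1 stood as a gene of fibroblasts, Fbln5 as a gene shared by fibroblasts and cluster 6, and Efemp2 as a gene with like means in all clusters. The starts printed are those whose window overlaps no annotated exon. Capitals mark matches, on either strand, to the letters TATAAA known as the TATA box, to the CCAAT box, to the letters GGGCGG known as the GC box, and to the letters TGANTCA known as the site of AP-1.
Fbln1, chr15:85205699-85205948, plus strand: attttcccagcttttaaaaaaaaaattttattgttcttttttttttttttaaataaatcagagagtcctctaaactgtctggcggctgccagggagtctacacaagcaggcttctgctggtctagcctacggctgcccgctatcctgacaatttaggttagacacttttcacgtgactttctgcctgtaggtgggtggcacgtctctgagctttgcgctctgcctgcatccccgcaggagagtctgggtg
Fbln5, chr12:101819120-101819369, minus strand: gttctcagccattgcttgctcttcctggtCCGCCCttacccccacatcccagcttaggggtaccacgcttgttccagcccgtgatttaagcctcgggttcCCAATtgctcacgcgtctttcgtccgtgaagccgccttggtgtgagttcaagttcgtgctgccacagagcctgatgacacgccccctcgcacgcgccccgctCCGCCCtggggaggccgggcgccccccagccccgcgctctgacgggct
Efemp2, chr19:5473696-5473945, plus strand: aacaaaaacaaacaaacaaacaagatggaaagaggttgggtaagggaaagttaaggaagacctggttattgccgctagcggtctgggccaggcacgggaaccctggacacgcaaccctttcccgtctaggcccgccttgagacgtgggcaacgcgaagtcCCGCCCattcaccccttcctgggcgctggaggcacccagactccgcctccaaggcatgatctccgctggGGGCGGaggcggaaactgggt

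The window of Fbln1 held none of these letters, that of Fbln5 held 2 GC boxes and 1 CCAAT box, and that of Efemp2 held 2 GC boxes. The result depends on the start. The second start of Fbln1 had 1 GC box, the other start of Fbln5 had no match, and both other starts of Efemp2 had 5 GC boxes each, so that no contrast between the 3 genes is read from these windows. Over 32851 such windows of the mouse genome, 32.7% held a GC box, 33.8% a CCAAT box, 12.4% a TATA box and 6.75% an AP-1 site. A match is a description of the sequence only, and nothing was measured here at these sites.

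The first comparison set fibroblasts against mural cells, the distinction at the centre of the study. Mfap5, Mfap4, Fbln1, Fbln2 and Efemp1 were higher in fibroblasts, and no member was lower. The study's text already lists Fbln1 and Fbln2 as fibroblast markers common to 4 organs, these hearts among them. Their calls here reuse cells of that selection. The counts of each strain were summed over the cells of a side, and the sums of 4 strains were compared with the quasi-likelihood F test of edgeR. Of 15117 genes tested, 896 (5.93%) passed an adjusted p of 0.05 in either direction, and 5 of the 10 members did. The median log2 fold change of the members was 2.13, and that of all genes was -0.02. Fbln2 had the largest change, 5.67 (SE 0.33, adjusted p = 9.89e-05), from 26.9 ± 9.57 CPM on the mural side to 1376 ± 86.9 CPM on the fibroblast side (SD, n = 4). In mural cells it stood at 19.2, 24.2, 40.9 and 23.3 CPM in C57BL6, PdgfrbGFP, Cspg4dsRED and Acta2GFP, and in fibroblasts at 1265, 1459, 1351 and 1428 CPM. Efemp1 was higher by 3.92 (SE 0.86, adjusted p = 0.0250). Fbln1 was higher by 3.91 (SE 0.45, adjusted p = 0.000840), at 2197 ± 521 against 148.4 ± 82.1 CPM. Mfap5 was higher by 3.26 (SE 0.42, adjusted p = 0.00169) and Mfap4 by 2.36 (SE 0.52, adjusted p = 0.0255). For these 5 genes every strain of the fibroblast side lay above every strain of the mural side. The same held for Fbn1 and Fbln5, which did not pass, and the share of all genes without overlap was not counted. Without C57BL6 or without PdgfrbGFP the calls of both Mfap4 and Efemp1 were lost and 3 members passed, beside 2.79% and 2.66% of all genes. The fold change was then 2.23 and 2.01 for Mfap4, and 3.61 and 3.50 for Efemp1. Without Acta2GFP the call of Mfap4 was lost, at 2.23, and the fold change of Efemp1 went to 5.54. Without Cspg4dsRED the call of Efemp1 was lost, at 3.76, and the fold change of Mfap4 went to 3.16. The cardiac muscle list, which holds Actc1, was higher in cluster 7, and in cluster 6 outside C57BL6, than in every fibroblast sum. Its part in these differences was not tested.

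The other members did not pass. Fbn1 (1.11, adjusted p = 0.0728), Fbln5 (1.90, adjusted p = 0.2001), Emilin1 (0.79, adjusted p = 0.296) and Efemp2 (0.62, adjusted p = 0.275) were higher in fibroblasts in 4 of 4 strains. Eln did not separate the sides, with a fold change of 0.19 (SE 0.87, adjusted p = 0.953) and 2 of 4 strains higher in fibroblasts. The mean was 295.7 ± 55.6 CPM on the fibroblast side and 263.7 ± 241.6 CPM on the mural side. The mural value was carried by few cells, since cluster 6 made 8.11% of C57BL6 mural cells and 96.97% of their Eln counts, and 24.1% of Cspg4dsRED mural cells and 94.9% of their Eln counts. In Acta2GFP cluster 6 held 29.9% of the mural Eln counts. With clusters 1 and 6 left out, Eln was higher in fibroblasts by 2.02 but not past the threshold (adjusted p = 0.363), and Fbln5 was higher by 3.62 and passed it (adjusted p = 0.0189).

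**Figure D3:**
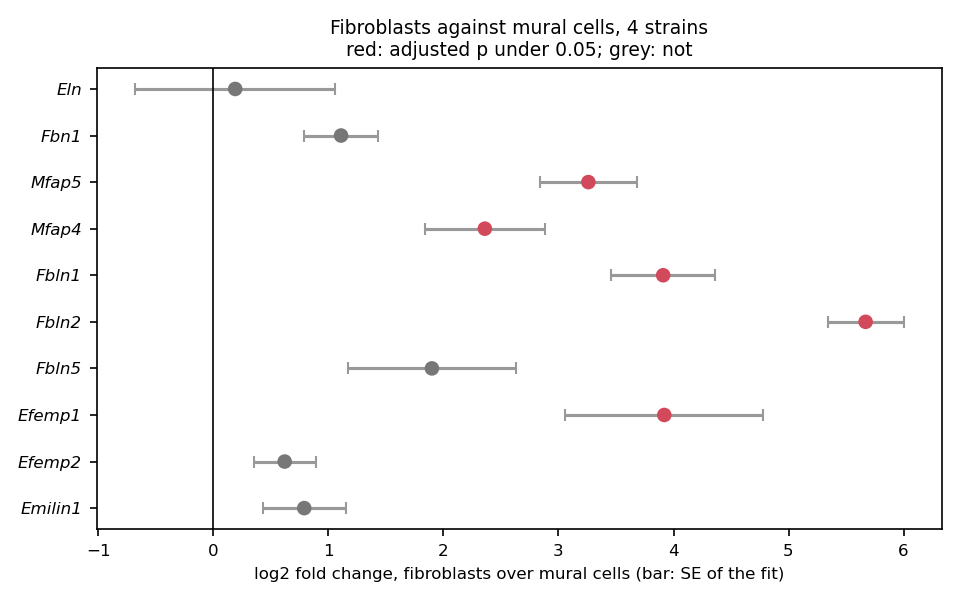
Log2 fold change of each elastic fibre gene, fibroblasts over mural cells, from sums over 4 strains, with the standard error of the fit. The 5 genes in red passed an adjusted p of 0.05, from Mfap4 at 2.36 to Fbln2 at 5.67, and Eln lies at 0.19.

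On some plates, mural counts of the fibroblast genes moved with the neighbouring wells. On the PdgfrbGFP plate, the Fbln1 count of a mural well and the summed Fbln1 counts of the fibroblast wells in its row or column had a Pearson correlation of 0.83, and the same value was 0.72 for Mfap4, 0.66 for Fbln5, 0.62 for Fbln2, 0.60 for Mfap5 and 0.59 for Eln, but -0.01 for Fbn1 and 0.06 for Emilin1. On the Acta2GFP plate it was 0.91 for Fbln2 and 0.59 for Fbln1 over 51 wells, and from -0.01 to 0.37 for the other members, with 0.06 for Eln. On the C57BL6 plate with mural wells it lay between -0.26 and 0.36 over 37 wells, with -0.16 for Fbln1 and 0.20 for Fbln2. On the Cspg4dsRED plate no member exceeded 0.18, and there Fbln1 was lowest, at 3.80 CPM in cluster 7 and 4.35 CPM in cluster 8. These correlations share a plate and its depth and are given as a description, and their part in the low mural levels was not tested.

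Among mural cells, cluster 6 was compared with clusters 7 and 8, in the strains C57BL6, Cspg4dsRED and Acta2GFP. In edgeR 0 members passed, beside 4 of 12117 genes (0.0330%), whereas 5 members and 695 genes had an unadjusted p under 0.05. DESeq2 passed 483 genes (3.73%) and 1 member, Mfap4 (adjusted p = 0.0325 in DESeq2). With strain as a block in edgeR, 0.883% of genes and 4 members passed, which were Eln (adjusted p = 8.06e-11), Fbln5, Mfap4 and Mfap5. None of the adjusted p-values that follow, from edgeR without the block, passed the threshold. Mfap4 had a log2 fold change of 4.25 (SE 0.88, adjusted p = 0.163), Mfap5 3.95 (SE 1.10, adjusted p = 0.452), Fbln5 3.92 (SE 0.88, adjusted p = 0.249), Eln 3.84 (SE 1.04, adjusted p = 0.412) and Fbln1 3.25 (SE 1.26, adjusted p = 0.665). For Eln, Mfap4, Mfap5 and Fbln5 the 3 strains of both sides did not overlap, and the share of all genes without overlap was not counted. Fbln1 was higher in cluster 6 in 2 of 3 strains and lower in Acta2GFP, at 50.2 against 162.7 CPM. Fibroblast markers stood at 12491, 3223 and 3108 CPM in cluster 6 in C57BL6, Cspg4dsRED and Acta2GFP, against 309 to 777 CPM in cluster 7 and 960 to 3334 CPM in cluster 8. They were higher in cluster 6 except in Acta2GFP, where cluster 8 held 3334 CPM. Their part in these differences was not tested. The median over members was 3.21, against -0.32 for all genes.

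The values moved when the 15 Acta2GFP cells of cluster 8 named above were left out, a setting chosen after seeing the data. Eln was then higher in cluster 6 by 5.79, Fbln5 by 5.07 and Mfap4 by 4.95. Since those cells hold the high Eln and Fbln5 of cluster 8, larger fold changes follow from leaving them out, and the values are given as a description with no test. With the whole Acta2GFP strain left out 5 members passed, beside 0.495% of all genes, and 0 passed without C57BL6 (0.144% of all genes) or without Cspg4dsRED (0% of all genes). Over these settings the fold change ran from 3.25 to 5.95 for Eln, from 3.22 to 5.60 for Mfap4, from 3.05 to 5.44 for Fbln5, from 2.76 to 5.64 for Mfap5 and from 1.49 to 4.99 for Fbln1. With all cells kept, Fbn1 (-0.29), Efemp2 (0.56), Emilin1 (1.03), Fbln2 (1.84) and Efemp1 (3.16) had an unadjusted p of 0.1 or more. Cluster 6 rested on 3 cells each in C57BL6 and Acta2GFP.

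Cluster 8 was then compared with cluster 7, pericytes with vascular smooth muscle cells, in PdgfrbGFP, Cspg4dsRED and Acta2GFP. In edgeR 0 members passed, beside 23 of 11867 genes (0.194%), and DESeq2 passed 0 members and 684 genes. Of the 23 genes 43.5% were higher in cluster 8, and with the size factors of DESeq2 this was 26.7% of 45. With an unadjusted p under 0.05 there were 817 genes and 1 member, Fbn1, which was higher in cluster 8 by 3.23 (SE 0.84, p = 0.00213, adjusted p = 0.186). It stood at 480.5 ± 126.6 CPM against 51.2 ± 47.3 CPM (SD, n = 3), higher in 3 of 3 strains and with no overlap. The PdgfrbGFP cells of cluster 7 were those with raised pericyte markers, and cardiac muscle markers were higher in cluster 7 in every strain. Fibroblast markers were higher in cluster 8 in every strain, at 1370 against 552.5 CPM in PdgfrbGFP, 959.5 against 308.6 CPM in Cspg4dsRED and 3334 against 776.5 CPM in Acta2GFP. The part of any of these was not tested. For Fbn1 the fold change lay between 2.82 and 4.20 when a strain was left out. The fold change of Eln, 2.99 (SE 1.66), came from Acta2GFP, and without that strain it was -2.83. The remaining members had an unadjusted p of 0.07 or more, at 3.36 for Efemp1, 2.62 for Fbln5, 2.01 for both Mfap5 and Fbln1, 1.42 for Mfap4, 0.63 for Fbln2, 0.13 for Emilin1 and -0.44 for Efemp2.

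Within fibroblasts, cluster 1 was compared with clusters 2 to 5. Fbln2 was the only member that passed, among the 1.33% of 13201 genes called. It was lower in cluster 1 by a log2 fold change of -1.81 (SE 0.28, adjusted p = 0.00913), at 433 ± 149.6 against 1504 ± 183.9 CPM (SD, n = 4), in 4 of 4 strains and without overlap. The call was lost without C57BL6 (fold change -1.71), without PdgfrbGFP (-1.81) and without Acta2GFP (-1.74). Each of these left 0 members past the threshold, beside 0.201% to 0.356% of all genes. Fbn1 (396.9 ± 219.5 against 774.9 ± 326.7 CPM, p = 0.0329, adjusted p = 0.461 in edgeR) and Efemp2 (-0.74, p = 0.0299, adjusted p = 0.4403 in edgeR) had an unadjusted p under 0.05, with Fbn1 lower in 3 of 4 strains and Efemp2 in 4 of 4. Eln (-1.21, adjusted p = 0.751) was lower in 4 of 4 strains, by little in PdgfrbGFP at 230.2 against 231.7 CPM, and its fold change lay between -1.80 and -0.79 when a strain was left out. The others were Mfap4 (0.56), Fbln5 (0.45), Fbln1 (0.01), Emilin1 (-0.26), Mfap5 (-0.42) and Efemp1 (-0.61). The median over members was -0.51, against -0.03 for all genes. Mural markers (125.5 to 729.8 CPM) and cardiac muscle markers (38.03 to 257.6 CPM) were higher in cluster 1 than in clusters 2 to 5, wherever a strain had both sums. Their part in these differences was not tested.

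Clusters 2, 3, 4 and 5 were each compared with the other three. In edgeR no gene and no member passed in any of these (0% of 13870, 14803, 14104 and 16214 genes), whereas DESeq2 passed 2.13%, 2.76%, 1.48% and 1.31% of the genes it tested. With an unadjusted p under 0.05 there were 641, 895, 670 and 630 genes, and 3, 3, 5 and 1 members. DESeq2 passed 1 member for cluster 4 and 0 for each of clusters 2, 3 and 5. In cluster 3 Fbln2 was lower by -2.14 (SE 0.28, p = 9.2e-06, adjusted p = 0.123), in 3 of 3 strains, at 346.5 ± 85.6 against 1686 ± 253.9 CPM, and Fbln1 had a value of 0.87 (SE 0.22, adjusted p = 0.364) in the opposite direction. Fbn1 was at -0.95 (p = 0.0211, adjusted p = 0.588 in edgeR), and the rest ran from -0.82 for Mfap4 through Mfap5 (-0.53), Eln (-0.46), Efemp1 (-0.08), Emilin1 (0.09) and Fbln5 (0.49) to 0.72 for Efemp2. With strain as a block 2 members passed here, beside 0.236% of all genes. In cluster 4 Mfap4 stood at 1629 ± 211.7 against 623.2 ± 152.8 CPM (1.39, SE 0.22, adjusted p = 0.0882) and Mfap5 at 1521 ± 347.1 against 864.1 ± 157.9 CPM (0.82, SE 0.24, adjusted p = 0.566), both higher in 4 of 4 strains without overlap. Eln (0.52), Fbn1 (0.81) and Fbln2 (0.63) were the other members with an unadjusted p under 0.05, and those above it ran from -0.73 for Emilin1 through Fbln5 (-0.46), Efemp1 (-0.43) and Efemp2 (-0.11) to -0.02 for Fbln1. In cluster 2 Mfap4 (-0.94) and Fbln1 (-0.65) were lower in 4 of 4 strains and Emilin1 (0.73) was higher in 4 of 4, while the rest ran from -0.53 for Efemp1 through Mfap5 (-0.40), Eln (-0.26), Fbn1 (-0.19), Efemp2 (-0.05) and Fbln5 (-0.00) to 0.15 for Fbln2. In cluster 5, with 2 strains, Efemp1 had 403.3 ± 58.8 against 213.7 ± 27.6 CPM (0.99, p = 0.00788, adjusted p = 1.00). The other members there ran from -0.57 for Mfap4 through Fbln2 (-0.48), Fbn1 (-0.44), Mfap5 (-0.37), Emilin1 (-0.29), Eln (0.06), Efemp2 (0.07) and Fbln1 (0.40) to 0.54 for Fbln5.

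**Figure D4:**
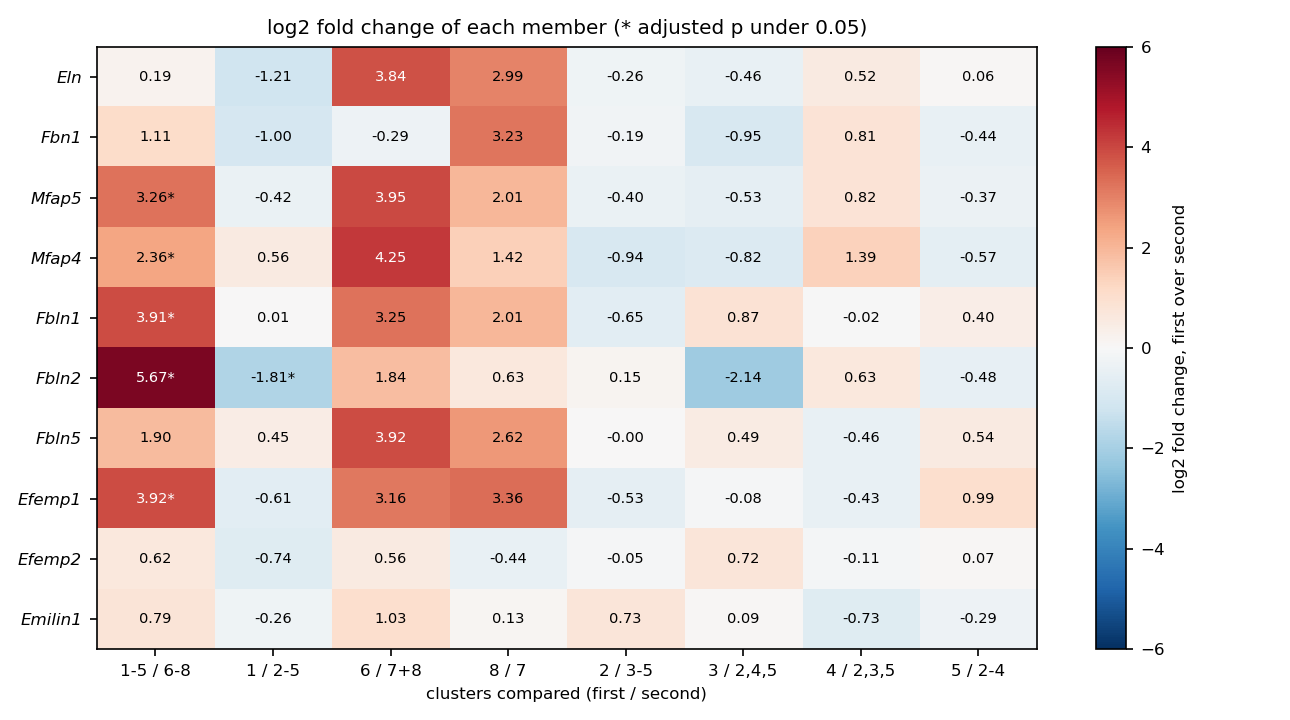
Log2 fold changes of the 10 elastic fibre genes in all 8 comparisons, first group over second, with a star where the adjusted p was under 0.05. Stars stand for 5 genes in fibroblasts against mural cells and for Fbln2 in cluster 1 against clusters 2 to 5.

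C57BL6 cells came mainly from 2 plates, which bear on the spread within a strain. For clusters 2 to 5 the levels of Mfap5 differed between these plates by at most 1.08 times, and those of Fbln5 by at most 1.21 times. In these clusters the widest gap was that of Fbn1 in cluster 3, at 563 CPM on the first plate and 121.2 CPM on the second, followed by Efemp1 in cluster 2, at 206.3 and 101.2 CPM, and Eln in cluster 4, at 546 and 304 CPM. In cluster 1, where the second plate held 3 cells, gaps were wider, with Emilin1 at 218.9 and 29.3 CPM and Eln at 212.7 and 44.5 CPM.

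Other genes of the elastic fibre were read from a list of 39, namely partners of the microfibril, relatives of the members, cross-linking enzymes, matrix proteins, proteases and integrin subunits. In fibroblasts against mural cells 33 of them were tested, 11 passed, all higher in fibroblasts, beside 5.93% of all genes, and the median log2 fold change of the 33 was 1.28, against -0.02 for all genes. The microfibril partners that passed were Mfap2, Fbn2 and Adamtsl2. Adamtsl2, which binds fibrillin and latent transforming growth factor beta binding proteins, stood at 378.2 ± 148.7 against 4.90 ± 2.92 CPM (6.22, SE 0.59, adjusted p = 0.000419). Fbn2, the fibrillin of development, was barely present, with 5.34 ± 4.10 CPM among fibroblasts and 0.0243 ± 0.0281 CPM among mural cells. Hmcn2, a relative of the fibulins, stood at 201.4 ± 57.4 against 2.12 ± 1.71 CPM (6.57, SE 0.82, adjusted p = 0.00139).

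Emilin2 passed as well (5.63, adjusted p = 0.00434). Among the cross-linking enzymes 1 of 4 tested passed, Loxl1, which the study's text also lists as a fibroblast marker. Its call was lost with strain as a block (adjusted p = 0.0758 in edgeR). Of the proteases 3 of 6 tested passed, Mmp2, Mmp3 and Ctsk. Bgn and Vcan passed among 4 matrix proteins, and 0 of 3 integrin subunits passed in edgeR, with a lowest unadjusted p of 0.1396. In this comparison the block passed 13 partners, beside 4.81% of all genes, with Ltbp2, Tnxb and Ctsl gained. DESeq2 passed 17, beside 13.2% of the genes it tested. In cluster 1 against clusters 2 to 5, 4 of 32 partners tested passed, all lower in cluster 1, beside 1.33% of all genes. Hmcn2 was at 1.57 ± 1.79 against 225.9 ± 58.6 CPM (-6.90, SE 0.73, adjusted p = 0.00123). Emilin2, a relative of Emilin1, was at 0.876 ± 0.948 against 96.3 ± 18.99 CPM (-6.55, SE 0.91, adjusted p = 0.00590), and Tnxb, which links collagen and elastic fibres, at 31.3 ± 26.1 against 248.2 ± 141.8 CPM (-2.97, SE 0.63, adjusted p = 0.0469). The other was Mmp14, a membrane-bound protease, whose call was lost with strain as a block (adjusted p = 0.0717 in edgeR). In the other 6 comparisons 0 partners passed in edgeR without the block, beside 0% to 0.194% of all genes. There 5 to 7 had an unadjusted p under 0.05, beside 3.89% to 6.88% of all genes, and 0 to 3 passed in DESeq2, beside 1.31% to 5.33%. With the block 3 partners passed for cluster 6, Bgn, Loxl1 and Ltbp1, beside 0.883% of all genes. In the other 5 comparisons 0 did, beside 0% to 0.691%.

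Likeness of pattern was measured as the Pearson correlation of log2(CPM + 1) over the 27 sums, among 10326 genes with a mean of 10 CPM or more. These sums share strains and plates, so the values are a description. Fbln1 was most like Dcn (0.97), Serpinf1 (0.96) and Mgst1 (0.96), Mfap5 most like Lsp1 (0.97), Lum (0.96) and Fbln1 (0.96), and Fbln2 most like Ace (0.97), Gm11651 (0.96) and Pdgfra (0.96). Dcn, Lum and Pdgfra are themselves fibroblast markers. The genes most like Eln were Osr1 (0.89), Eef2k (0.89) and Aebp1 (0.87), those most like Fbn1 were Nav1 (0.90), Lrp1 (0.89) and Col6a2 (0.87), and those most like Mfap4 were Itgbl1 (0.86), Mfap5 (0.86) and Aebp1 (0.85). For Fbln5 they included Pam and Itgbl1 (0.93 each), for Efemp1 they were Qpct (0.89), Apobec3 (0.88) and Cd276 (0.86), and for Emilin1 Gm20427 (0.90), Ddr2 (0.89) and Copa (0.89). Efemp2 had no close match, with Kdelr2 and Aspa at 0.73 and Rpl18 at 0.69.

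Among the members, likeness depended on which cells were taken. Eln and Fbln5 had a correlation of 0.93 over the 10 mural sums and of -0.48 over the 17 fibroblast sums. Mfap5 and Fbln1 had 0.95 over mural sums and -0.06 over fibroblast sums. Eln went with Mfap4 in both, at 0.83 and 0.84, and with Efemp1 at 0.74 and 0.85. The fibroblast values include the small sums in which Eln, Mfap4 and Efemp1 were low together.

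Single cells mostly held counts of most members. The median cell of clusters 1 to 5 had 9 of the 10, and all 10 were found in 48.6% of cluster 1 cells and 40.8% of cluster 4 cells. In cluster 7 the median was 7 and the lowest 0. Because these shares rise with depth, each cell was also thinned to 40000 counts, and the expected share of cluster 4 cells with a count of Eln then fell from 81.1% to 61.8%, that of cluster 6 cells from 100% to 92.2% and that of cluster 8 cells from 54.1% to 23.1%. Cluster 6 stayed highest and cluster 8 lowest for this gene at both depths.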

How the data were processed

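Full-length cDNA libraries of single sorted cells (Smart-seq2, without molecular identifiers) had been sequenced as single reads. The authors deposited whole-number read counts per gene and cell, counted with featureCounts (Subread) on GRCm38 (mm10) after alignment, and they had removed cells of low quality and possible doublets. The annotation release and strand setting are not given in the sources used here. The table held 46517 genes and 92 spike-in features, which took 1.82% of counts and were left out. Gene positions and exon lengths came from GENCODE M21, which matched 46005 genes.

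Groups were the cluster and strain of each cell in the labels. For each comparison, the counts of a strain's cells were added up on either side, where both sides had 3 cells or more. Sums were tested in edgeR 4.0.16 (R 4.3.3) with TMM scaling, filterByExpr at a minimum count of 10 and the quasi-likelihood F test, without a block, and p-values were adjusted by Benjamini-Hochberg over all genes tested, with a threshold of 0.05. Levels are CPM, computed here from the counts. The fit was tested on simulated counts before use. Alternatives were DESeq2 1.42.0 with its own filter, its size factors in edgeR, no filter, strain as a block, leaving out each strain, C57BL6 plates summed separately, sums of 10 cells or more, every cell thinned to 40000 counts, and 2 sets of cells left out. Sums of a reporter strain shared a plate on both sides. The correlations of their deviations from the side means were 0.12 to 0.22 in fibroblasts against mural cells and 0.04 to 0.12 in cluster 6 against clusters 7 and 8.

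The members and lists were chosen with earlier results of these data known. All 10 members are named in every comparison. Of the partner genes, up to 3 per comparison and direction are named by the size of the log2 fold change among those past the threshold and of the same direction in every strain. For each member the 3 genes of most similar pattern are named, apart from 1 that is not reported here. Beyond this rule, the remaining partners past the threshold were named after their values were seen. This included those passing with the block for cluster 6 and for fibroblasts against mural cells.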

Additional observations from a re-analysis of the deposited data

Results flagged for a closer look

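In 70 groups of 4 strains, Dixon's ratio of the gap to the range was set against its 95% critical value, which chance passes in about 1 group of 20, and 8 groups passed it. Acta2GFP stood above the other strains in 5 of them. In cluster 8 it held 673.3 CPM of Eln against 4.05 to 5.15 CPM, 364.1 CPM of Fbln1 against 4.35 to 61.7 CPM, 452.1 CPM of Fbln5 against 19.4 to 42.03 CPM and 81.8 CPM of Efemp1 against 1.20 to 5.29 CPM. In mural cells as a whole it held 54.5 CPM of Efemp1 against 2.72 to 7.57 CPM. The Acta2GFP cells of cluster 8 were 15, their smooth muscle and fibroblast markers were above those of the other strains, and the part of these in the levels was not tested.

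The other 3 gaps were small in size. Mfap4 in cluster 4 was lower in Acta2GFP, at 1314 CPM against 1704 to 1769 CPM. Fbln2 in cluster 2 was lower in C57BL6, at 1502 CPM against 1612 to 1632 CPM. Efemp2 in cluster 1 was higher in C57BL6, at 259.8 CPM against 184.1 to 188.8 CPM.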

How the results depend on the processing

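In fibroblasts against mural cells, 5 members passed the threshold with DESeq2, its size factors, no filter, the strain block and C57BL6 plates apart. When a strain was left out, 3 to 4 passed. Of all genes, 6.00% passed with the size factors, 2.58% without the filter, 5.87% with plates apart and 2.66% to 3.91% without a strain. For cluster 1, 1 member passed under the same settings and 0 to 1 when a strain was left out. The share of all genes there was 1.36% with the size factors, 0.530% without the filter, 1.92% with plates apart and 0.201% to 0.748% without a strain. For cluster 6 against clusters 7 and 8, 0 members passed in the main fit. This became 4 with strain as the replicate block, 5 without the filter (0.418% of all genes) and 1 with DESeq2. When a strain was left out, 0 to 5 members passed, beside 0% to 0.495% of all genes. The setting without the Acta2GFP cells of cluster 8 was chosen after seeing the data, so no number of calls is given for it. For cluster 8 against cluster 7, 1 member passed without the filter, beside 0.855% of all genes. For cluster 3, 2 members passed with the block (0.236% of all genes), 1 without the filter (0.0705%) and 1 with C57BL6 plates apart (0.135%). For cluster 4, 1 passed with DESeq2 (1.48%) and 1 with plates apart (0.159%). The causes of these moves were not tested. Leaving out a strain also leaves fewer samples. The share of all genes past the threshold was 5.93%, 1.33%, 0.0330% and 0.194% in the first 4 comparisons, 13.2%, 6.00%, 3.73% and 5.33% of the genes it tested with DESeq2, and 4.81%, 0.742%, 0.883% and 0.691% with the block. With DESeq2 size factors the median log2 fold change of all genes went from -0.32 to -0.17 for cluster 6, from 0.18 to 0.04 for cluster 8 against cluster 7, and from -0.13 to 0.04 for cluster 3.

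Signs turned only for fold changes that had not passed the threshold. In cluster 1 Fbln1 was at -0.16 with the block, -0.07 without the filter, -0.05 with plates apart and -0.33 to 0.17 without a strain. In cluster 6 Fbn1 was at 0.04 without the Acta2GFP cells of cluster 8 and at -0.90 to 0.59 without a strain, and Fbln2 at -0.24 to 2.57. In cluster 8 against 7, leaving out a strain gave -2.83 to 4.33 for Eln, -0.62 to 0.01 for Efemp2 and -0.23 to 0.94 for Emilin1, and sums of 10 cells or more gave 0.01 for Efemp2 and -0.23 for Emilin1. In cluster 2 Fbln5 was at 0.00 with DESeq2 and -0.07 to 0.07 without a strain, and Fbn1 at -0.36 to 0.11. In cluster 3 Efemp1 was at 0.04 with DESeq2 size factors, 0.03 with DESeq2, 0.11 with plates apart, 0.57 in sums of 10 cells or more and -0.77 to 0.57 without a strain, and Emilin1 was at -0.40 with the block and -0.30 to 0.39 without a strain. In cluster 4 Fbln1 was at 0.00 with the block, with DESeq2 and with its size factors, and at -0.09 to 0.05 without a strain. In fibroblasts against mural cells Eln was at -0.16 to 0.79 without a strain. For cluster 5, leaving out a strain leaves 1 sum on each side and no test. Depth limits values near 0 in the sums of 3 to 9 cells.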
